A study of Homo sapiens with 2 samples.

Results

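The E2F and DP genes are 10 protein-coding genes, E2F1 to E2F8, TFDP1 and TFDP2, chosen by name from the 20090 protein-coding genes and 38659 protein-coding and lncRNA genes of the annotation. The rule used gene names alone. E2F proteins are transcription factors that control the entry into and passage through the cell cycle. E2F1, E2F2 and E2F3 are known as activators, E2F4 and E2F5 as repressors that work with the pocket proteins of the retinoblastoma family, and E2F6, E2F7 and E2F8 as atypical members that repress without these pocket proteins. TFDP1 and TFDP2 encode the DP proteins, with which E2F1 to E2F6 pair to bind DNA, whereas E2F7 and E2F8 bind without a DP partner. MYBL2, also called B-MYB, joins the MuvB core complex and is known for switching on late cell cycle genes, and its own gene is a textbook E2F target.

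To map where MYBL2 sits on chromatin in Ewing sarcoma, a bone and soft tissue cancer driven by a fusion of EWSR1 to an ETS gene such as FLI1, ChIP-seq was performed in A673 cells, an established cell line of this cancer. The labels mark both samples as WT, give 1 group as an anti-MYBL2 ChIP and the other as input DNA without antibody, and name no treatment or time point, while the study's methods specify the antibody as one against activated, phosphorylated MYBL2. Each group held 1 library, so that no replicate spread and no test between groups exists, and a peak list cannot show the identity of the cell line. The deposited list held 66954 peaks with a median fold enrichment of 3.79, and the depth recovered from its values was about 56800000 ChIP reads.

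Each of the 10 E2F and DP genes carried at least 1 MYBL2 peak at a promoter, defined as 1000 bp either side of any annotated transcription start site (TSS) of the gene. Their best peaks ran from a fold enrichment of 4.48 at TFDP2 to 20.2 at E2F3. E2F3 stood above the other 9 genes beyond counting error, while most of the others lay near the middle of all genes with a promoter peak. Fold enrichment is the caller's ratio of the ChIP fragments piled up at the summit, plus 1, to the background, plus 1. The background is a local value or, where that is lower, a floor of 3.45. It was at the floor in 20.3% of all peaks and in 5 of the 10 best peaks (E2F3, E2F4, E2F5, E2F8 and TFDP1). Among all protein-coding genes 59.4% had a promoter peak, and among those with a CpG-rich promoter, a feature that all 10 E2F and DP genes share, the percentage was 79.2%.

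The DNA just upstream of the start site is shown for 5 of the genes. It holds at least 1 E2F site in each of the 3 activators and in TFDP1. For E2F7 it holds several CCAAT boxes and no E2F site in the full letters given below. Each run is 250 bases of the GRCh37 (hg19) reference, read 5′ to 3′ in the direction of the gene and ending at the base before the TSS. Capitals mark E2F sites (TTTCCCGC, TTTCGCGC, TTTGCCGC or TTTGGCGC), CCAAT boxes (CCAAT, bound by NF-Y) and CHR elements (TTTGAA or TTCGAA, the letters the MuvB complex reads), each on either strand. The E2F1 run lies at chr20:32274192-32274441 (minus strand), the E2F2 run at chr1:23857726-23857975 (minus strand) and the E2F3 run at chr6:20401860-20402109 (plus strand). The E2F7 run lies at chr12:77459350-77459599 (minus strand) and the TFDP1 run at chr13:114238786-114239035 (plus strand).
E2F1: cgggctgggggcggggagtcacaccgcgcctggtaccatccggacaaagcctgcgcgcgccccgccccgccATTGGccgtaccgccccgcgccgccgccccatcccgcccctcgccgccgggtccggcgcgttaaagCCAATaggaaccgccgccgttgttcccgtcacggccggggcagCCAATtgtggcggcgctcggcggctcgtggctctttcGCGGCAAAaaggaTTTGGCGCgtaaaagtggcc
E2F2: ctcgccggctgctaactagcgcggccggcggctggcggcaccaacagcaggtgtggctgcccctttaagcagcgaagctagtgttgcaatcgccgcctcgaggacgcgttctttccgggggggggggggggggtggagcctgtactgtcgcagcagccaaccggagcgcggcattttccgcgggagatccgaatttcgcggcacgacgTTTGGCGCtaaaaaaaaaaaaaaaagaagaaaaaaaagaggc
E2F3: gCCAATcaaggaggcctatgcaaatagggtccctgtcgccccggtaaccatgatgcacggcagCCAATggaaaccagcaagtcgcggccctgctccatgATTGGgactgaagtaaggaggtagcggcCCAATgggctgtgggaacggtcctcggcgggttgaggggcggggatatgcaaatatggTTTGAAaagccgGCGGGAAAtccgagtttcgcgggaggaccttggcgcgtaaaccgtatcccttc
E2F7: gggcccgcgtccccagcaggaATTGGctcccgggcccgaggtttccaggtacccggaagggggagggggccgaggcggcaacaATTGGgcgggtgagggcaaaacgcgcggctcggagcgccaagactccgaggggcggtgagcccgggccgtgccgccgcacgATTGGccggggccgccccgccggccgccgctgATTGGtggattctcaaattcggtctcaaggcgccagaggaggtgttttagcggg
TFDP1: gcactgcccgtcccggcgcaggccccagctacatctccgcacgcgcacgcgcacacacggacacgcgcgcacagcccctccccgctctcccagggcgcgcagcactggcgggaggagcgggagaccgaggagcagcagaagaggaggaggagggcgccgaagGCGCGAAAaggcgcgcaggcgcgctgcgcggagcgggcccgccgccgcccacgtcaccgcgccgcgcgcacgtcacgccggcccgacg

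In these 250 bases an E2F site occurred in 6 of the 10 genes, against 3.17% of all protein-coding promoters and 4.0% of those with a promoter peak. All 3 activators were among the 6. E2F1 held 2 sites, centred -16 and -29 bp from its TSS. E2F2 held 1 at -38 bp and E2F3 held 1 at -50 bp, while a second E2F2 site, at -359 bp, lay outside the run. In TFDP1 the site was at -85 bp, and the E2F5 promoter held 1 at -189 bp. The sixth gene was E2F8, an atypical member. Its window ends at the canonical start, 19262492. This site lies downstream of the starts of 3 other E2F8 coding transcripts, at 19263145 to 19263167, so the count for E2F8 depends on the start used. The E2F7 run held no full E2F site, but the same pattern without its first T matched there at -130 and -173 bp. That shorter pattern occurred in 12.5% of all protein-coding promoters and 15.9% of those with a promoter peak. CCAAT boxes occurred in 5 of the 10 windows (33.1% of all promoters), with 3 in E2F1, 4 each in E2F3 and E2F7, and 2 each in E2F8 and TFDP2. The CHR element was found in 1 window, that of E2F3, at -63 bp, against 13% of all promoters. Such letter matches describe the sequence and are not measured sites of binding.

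Among the activators, which drive the genes of DNA synthesis, MYBL2 enrichment differed between E2F3 and the other members. E2F3 (ENSG00000112242, chromosome 6, 20402110 to 20493945, plus strand) had its best peak at 20401391 to 20403822. At the summit, 130 bp downstream of the start of E2F3-201 in the 5′ UTR, 89 fragments were piled up over a background of 3.45, which gave a fold enrichment of 20.2 (exact Poisson 95% interval 16.3 to 24.8). This value was above that of 93.8% of the 11939 protein-coding genes with a promoter peak. The same peak overlapped the promoter window of an unnamed neighbouring gene, ENSG00000289981, so it cannot be given to E2F3 alone. Intervals here cover counting error only and take the background as exact.

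E2F2 (ENSG00000007968, chromosome 1, 23832930 to 23857725, minus strand) had 1 promoter peak, at 23856090 to 23858514. Its fold enrichment was 11.0 (8.42 to 14.1) from 60 fragments, 38 bp downstream of the TSS in the 5′ UTR. With a width of 2425 bp it was nearly as wide as the 2432 bp peak of E2F3, and both were wider than 94.4% of the best promoter peaks of protein-coding genes. E2F1 (ENSG00000101412, chromosome 20, 32263283 to 32274191, minus strand), the founding member of the family, had its best peak at 32273326 to 32274351, with 7.88 (5.61 to 10.8) from 37 fragments and the summit 36 bp downstream of its only TSS. A second E2F1 peak, 191 bp wide, had its summit at -440 bp with a fold enrichment of 4.09 (2.58 to 6.22). E2F1 thus ranked above 43.3% of bound genes and E2F2 above 68.0%, where bound means having a promoter peak. The plot of best peaks by gene shows the order, with E2F3 alone above 15.

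**Figure D1:**
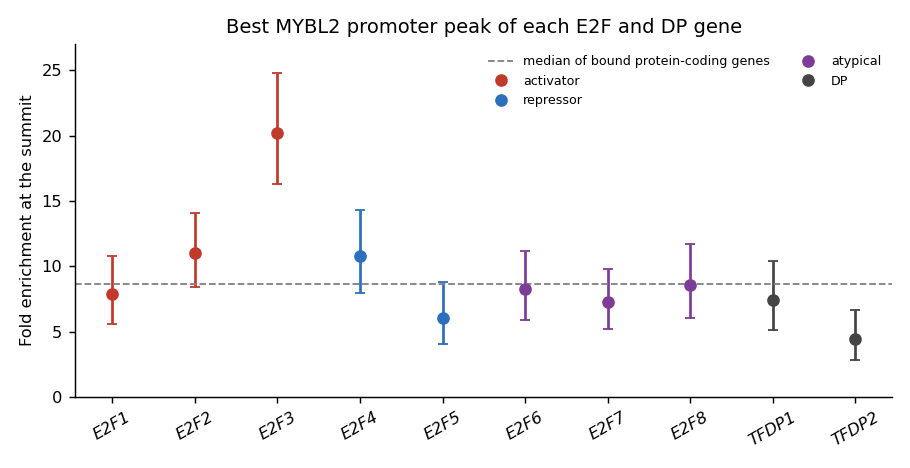
Fold enrichment at the summit of the best MYBL2 promoter peak (y axis, from 0) of each E2F and DP gene (x axis), with exact Poisson 95% intervals as bars, colours for the role and a dashed line at 8.67, the median of bound protein-coding genes. E2F3 sits at 20.2 with an interval that starts at 16.3, above the upper ends of all other intervals (14.3 at most).

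The repressors E2F4 and E2F5, which hold genes silent together with pocket proteins in resting cells, differed in the height of their peaks. At E2F4 (ENSG00000205250, chromosome 16, 67226058 to 67232821, plus strand) the best peak, 67225913 to 67226682, reached 10.8 (7.98 to 14.3) from 47 fragments. Its summit lay in coding exon 1 of the canonical transcript, the only best summit of the 10 genes in coding sequence. A second peak inside the gene, in intron 6 and 57 bp from the start of the transcript E2F4-205, had 3.37 (1.94 to 5.5) from 14 fragments, the lowest value of the 18 promoter peaks.

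E2F5 (ENSG00000133740, chromosome 8, 86089389 to 86129387, plus strand) had 1 peak, 86088994 to 86090298, with 6.07 (4.04 to 8.78) from 26 fragments and its summit in the 5′ UTR. It lay above 25.7% of bound genes, against 66.8% for E2F4. The E2F5 peak also overlapped the promoters of E2F5-DT, a divergent transcript, and of ENSG00000254208.

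The atypical members were alike in height, from 7.24 to 8.54, with 37 to 40 fragments at their summits. E2F8 (ENSG00000129173, chromosome 11, 19245610 to 19263167, minus strand) and E2F7 (ENSG00000165891, chromosome 12, 77415028 to 77459349, minus strand) are known to bring E2F target genes down again late in the cycle. E2F8 had 1 peak at 19262111 to 19263171 with 8.54 (6.08 to 11.7), its summit 16 bp downstream of the start of E2F8-201. For E2F7 the best peak at 77458458 to 77459901 had 7.24 (5.22 to 9.79), its summit 50 bp downstream of the start of E2F7-203. E2F7 had a further peak of 3.48 at 1172 bp and another of 3.66 at an internal start, 918 bp downstream of E2F7-207. E2F6 (ENSG00000169016, chromosome 2, 11584501 to 11606303, minus strand), which represses as part of a Polycomb complex, had a narrow best peak of 335 bp at 11606246 to 11606580. That peak had 8.24 (5.9 to 11.2), with its summit at -82 bp, upstream of the gene, and a second peak at 178 bp had 4.44 (2.79 to 6.74).

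The DP partners had the lowest median of the 4 roles, 5.95 over 2 genes. TFDP1 (ENSG00000198176, chromosome 13, 114239036 to 114295788, plus strand) encodes the main partner of the E2F proteins. Its best peak, 114238598 to 114239225, had 7.41 (5.14 to 10.4) from 32 fragments with the summit at -248 bp, and a second peak of 4.49 (2.79 to 6.89) lay 8 bp from the start of TFDP1-203. TFDP2 (ENSG00000114126, chromosome 3, 141663270 to 141868386, minus strand) had 1 peak of 210 bp, 141868267 to 141868476, with 4.48 (2.88 to 6.69) from 22 fragments, 1 bp from the start of TFDP2-215. TFDP2 ranked above 11.3% of bound genes and was the only member with no promoter peak of a fold enrichment of at least 5.

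By role, the median best fold enrichment was 11.0 for the 3 activators, 8.42 for the 2 repressors, 8.24 for the 3 atypical members and 5.95 for the 2 DP genes, with 8.06 for all 10 and 8.67 for all bound protein-coding genes. The ranges of the activators (7.88 to 20.2), repressors (6.07 to 10.8) and atypical members (7.24 to 8.54) overlapped, and with 2 or 3 genes each the roles were not tested against each other. E2F3, E2F2 and E2F4 were the 3 members above the median of bound genes. In 9 members the best peak reached a fold enrichment of 5, as it did in 49.6% of all protein-coding genes.

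Ordered by fold enrichment, only the top neighbours differed beyond counting error. The ratio of E2F3 to E2F2 was 1.85 (exact conditional 95% interval 1.32 to 2.61). It sets 89 fragments over the floor of 3.45, plus 1, against 60 fragments over a background of 4.56, plus 1. In these ratios 1 is added to the backgrounds but not to the fragments, so they differ slightly from ratios of the printed fold enrichments. In the other 8 neighbouring pairs the interval held 1, from E2F2 against E2F4 (1.02, 0.686 to 1.53) to E2F5 against TFDP2 (1.36, 0.742 to 2.52). Against each of the 9 others E2F3 was higher, by 1.85 to 4.66 times, and all 9 intervals lay above 1. Of the 9 other members, 6 lay above TFDP2 beyond counting error, and E2F5, E2F7 and TFDP1 did not. These intervals were not adjusted for the number of pairs and say nothing about how the values would vary in another culture.

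**Figure D2:**
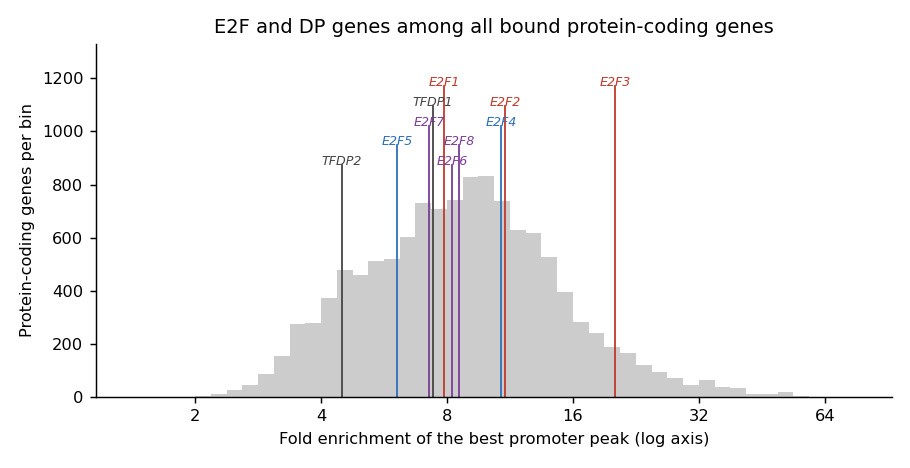
Histogram of the fold enrichment of the best promoter peak (x axis, log scale) over the bound protein-coding genes (y axis, genes per bin), with a vertical line for each E2F and DP gene in the colour of its role. Most of the 10 lines fall in the bulk of the distribution, TFDP2 at 4.48 in its lower flank and E2F3 at 20.2 in its upper tail.

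Together the 10 genes had 18 promoter peaks, 10 of them with a fold enrichment of at least 5. The share of all promoter peaks that reach this value was not counted. At least 2 promoter peaks were found in 6 members, and in 46.9% of bound protein-coding genes. The best summit lay within 100 bp of a TSS in 8 members, E2F3 and TFDP1 being the exceptions, against 58.6% of bound genes. Of the best summits, 7 fell in the 5′ UTR of the canonical transcript, 2 upstream (E2F6 and TFDP1) and 1 in coding sequence (E2F4). These places were not counted over all bound genes, so they only describe the 10 genes. Best peaks of 6 members were wider than 865 bp, the median of bound genes, and those of E2F4, TFDP1, E2F6 and TFDP2 were narrower, at 770, 628, 335 and 210 bp.

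**Figure D3:**
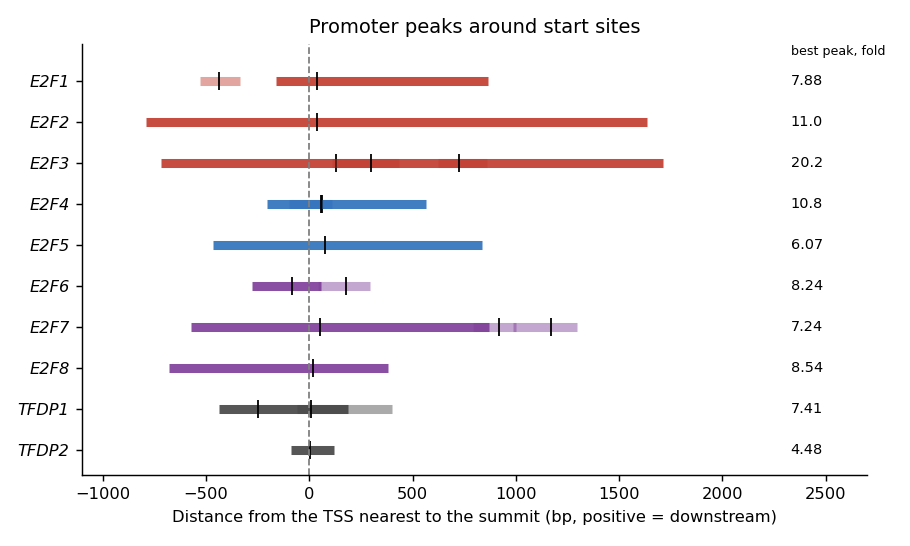
Promoter peaks of each gene (bars, best peak in full colour, others lighter) by distance from the TSS nearest to each peak's own summit (x axis, bp, positive downstream), with black ticks at summits and the best fold enrichment printed at the right; bars of 1 gene can overlap because they are placed from different TSSs. The E2F2 and E2F3 bars are the widest at 2425 and 2432 bp, and the TFDP2 bar is 210 bp wide around its start.

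Many of these genes have alternative promoters. When TSSs within 500 bp were joined, the 10 genes had 35 start regions, of which 17 had a peak within 1000 bp. All 10 canonical start regions had one, against 94.3% of those of all bound protein-coding genes, and so did 7 of the 25 others, against 25.5%. Both counts are near these shares. One of the 7, in E2F8, was reached only by the peak of the canonical start. E2F3 has a full-length and a shorter product from separate starts. The summit of 20.2 lay at the start of E2F3-201, while near the start of E2F3-202 there were summits of 5.17 (3.32 to 7.71) at 297 bp and 4.72 (2.97 to 7.16) at 723 bp. TFDP2 had a peak at 1 of its 11 start regions. Its largest internal one, with 7 TSSs between 141747439 and 141747999 and 6 coding transcripts, had none. In E2F5 1 of 5 start regions had a peak, and in E2F4 all 4 did, although 3 of these shared the weak peak of 3.37. A peak below the caller's threshold would not be in the list, so a start without a peak is one where no binding was detected at this depth.

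Outside the promoter windows, the bodies of the 10 genes held 47 peaks, 42 of them in introns and 2 with a fold enrichment of at least 5. The same shares over the body peaks of all genes were not counted, so neither can be read as a trait of these genes. Over all 66954 peaks of the list the median fold enrichment was 3.79. Both body peaks of at least 5 were in E2F1. One, 1891 bp wide with its summit 1790 bp downstream of the TSS in an intron, reached 7.53 (5.31 to 10.4) from 35 fragments. This was close to the 7.88 of the E2F1 promoter itself. That peak ended at 32273182, just outside the promoter window, and the best promoter peak starts at 32273326. It is counted among the 6 body peaks below. The other, 4232 bp downstream, had 5.15 (3.35 to 7.63). In all, E2F1 held 6 body peaks in 9.91 kb, or 6.06 per 10 kb, a density above that of 98.4% of the 15661 protein-coding genes with at least 5 kb outside promoters. Of those genes 56.3% had no body peak.

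E2F3 held the most body peaks, 20 in 89.0 kb, of which 16 were in intron 1, at fold enrichments up to 4.94 (median 3.45). Those 16 were spread from 20406730 to 20467575, in a gene of 20402110 to 20493945. Their number was not set against the length of the intron. The E2F3 density of 2.25 per 10 kb was above that of 92.9% of genes. E2F2 held 6 (2.75 per 10 kb, above 94.2%), E2F6 5 (2.7, above 94.1%), E2F5 4 (1.31, above 88.3%) and TFDP1 4 (0.754, above 82.5%), none with a fold enrichment above 4.49. TFDP2 had 2 in 184 kb, and in E2F7 (41.3 kb), E2F8 (13.9 kb) and the short body of E2F4 (2.27 kb) there were 0.

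CpG content was above the median of all protein-coding genes in 9 of the 10 promoters, E2F4 being the exception. The observed/expected CpG ratio in the 1000 bp around the TSS ran from 0.648 in E2F4 to 0.946 in TFDP1, against a median of 0.726 in all and 0.79 in bound protein-coding genes. E2F4, with the lowest ratio, had the third highest fold enrichment, and TFDP1, with the highest, the fourth lowest.

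The best peaks were also searched for motifs by distance from the summit. Within 50 bp of the best summit 0 of the 10 genes had an E2F site, and 1.93% of bound protein-coding genes had one, so a count of 0 is near the background. At 100 bp either side 2 had one, E2F1 (centred -52 and -65 bp from the summit) and E2F2 (-76 bp), against 3.66%. Anywhere in the best peak 7 of 10 held an E2F site, against 13.7% of bound genes, the exceptions being E2F4, E2F6 and TFDP2. Since wide peaks hold more sequence, the sites were also counted by length, and there were 0.859 per kb in the best peaks of the 10 genes and 0.142 per kb in those of all bound genes.

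The other motifs were found near some of the summits. A MYB site (CAACNG or TAACNG, the letters MYB proteins read) lay within 50 bp of the summit in 2 genes, E2F3 and E2F5, against 17.6% of bound genes. A CCAAT box lay there in E2F8 and TFDP2 (10.0% of bound genes), and an Sp1 site (GGGCGG) in E2F1, E2F3, E2F4, E2F5 and E2F6 (29.3%). No CHR element (3.93%) and no ETS core (CCGGAAGT, 3.7%) lay within 50 bp of any of the 10 summits. In E2F3, where a CHR element and an E2F site stood at -63 and -50 bp from the TSS in the run shown above, they lay at -192 and -179 bp from the summit. All motifs were sought on both strands, and letters of an Sp1 site may overlap those of an E2F site.

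**Figure D4:**
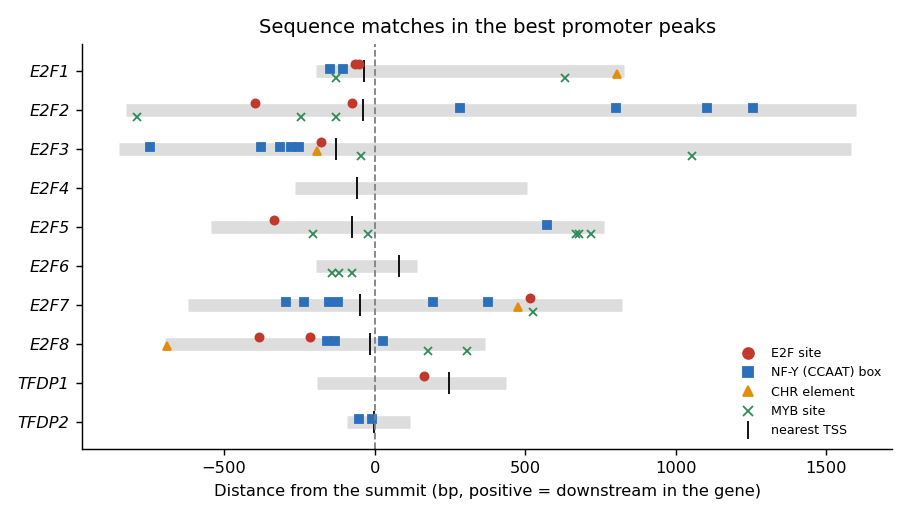
Positions of sequence matches in the best promoter peak of each gene (grey bars), by distance from the summit in bp (x axis, positive downstream in the gene), with E2F sites as circles, CCAAT boxes as squares, CHR elements as triangles, MYB sites as crosses and the nearest TSS as a black tick. The E2F1 circles at -52 and -65 bp are the closest of all E2F sites to a summit.

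The other genes of the pathway were read from a list of 56, of which 52 had a promoter peak and 50 one with a fold enrichment of at least 5. Over all protein-coding genes these shares were 59.4% and 49.6%, and of the CpG-rich promoters 79.2% had a peak. The counts of the groups below, of 1 to 22 genes each, stand beside the same shares. The median of the list was 11.3, beside 8.06 for the E2F and DP genes and 8.67 for all bound genes, and 7 of the 56 reached or passed E2F3. Pocket proteins, which bind and silence E2F proteins, all had a peak, from 11.0 (8.24 to 14.4) at RB1 to 17.1 (13.9 to 20.9) at RBL2 (median 15.8). The MuvB core, the partner of MYBL2, had 5 of 5 with a median of 10.9, from 6.07 (4.04 to 8.78) at LIN54 to 20.0 (16.1 to 24.6) at LIN37.

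G1 cyclins and their kinases, which release E2F from the pocket proteins, had a peak in 7 of 8 with a median of 8.36. CCND1, encoding cyclin D1, held the strongest peak of the list, 34.5 (29.3 to 40.4). CCNE2 held the weakest, 4.72 (2.97 to 7.16), and CCNE1 had none. CDK inhibitors had a peak in 4 of 6 (median 11.7), from 7.75 (5.43 to 10.7) at CDKN1A to 23.4 (19.5 to 27.9) at CDKN2C, and none at CDKN2A and CDKN2B. The best peaks of RB1, LIN37, CCND1, CCNE2, CDKN1A and CDKN2C each overlapped the promoter of another gene too. Whether the loci without a peak are intact in this line cannot be read from a peak list.

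Factors that end E2F activity or break E2F proteins down had the highest median, 19.4 over 4 genes, between 9.21 (6.64 to 12.5) at CCNF and 22.7 (18.8 to 27.2) at CCNA2, the cyclin that turns off activator E2Fs. Partners of E2F6 in its Polycomb complex had a peak in 7 of 7 (median 8.39), from 5.39 (3.5 to 7.98) at RYBP to 22.5 (18.3 to 27.3) at MAX. All 22 listed E2F target genes, many but not all of them genes of DNA replication and repair, had one (median 12.1). Their best peaks ran from 4.86 (3.13 to 7.25) at MCM5, a part of the replicative helicase, to 23.6 (19.4 to 28.5) at RRM2, a subunit of ribonucleotide reductase. TFDP3, the DP paralog, had none.

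**Figure D5:**
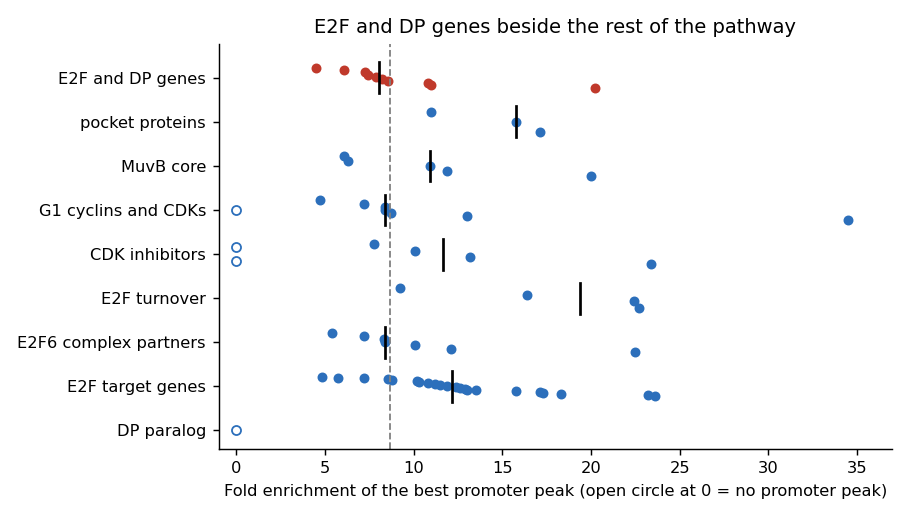
Fold enrichment of the best promoter peak (x axis) of each gene in the E2F and DP set (red) and in each group of the pathway list (blue), with black bars at the group medians, open circles at 0 for genes without a promoter peak and a dashed line at 8.67, the median of bound protein-coding genes. CCND1 at 34.5 lies farthest to the right, and the E2F and DP genes cluster around their median of 8.06 with E2F3 apart.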

How the data were processed

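A673 cells gave 1 MYBL2 ChIP library and 1 input library, sequenced as single-end reads. Per the submitters' processing notes and the study's methods, the authors aligned the reads to hg19 with Bowtie2 2.1.10 and called narrow peaks with MACS2 2.0.10 against the input. The deposited list is named as cleaned, and what the cleaning removed is not described in the sources used here. Peaks are numbered up to 66964 with 10 numbers missing. The deposited list gives, per peak, a score, the fold enrichment (a linear ratio), −log10 p, −log10 q and the summit offset. The largest q was 0.0493.

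From these values whole-number pileups and backgrounds were recovered (largest misfit 3.49e-05 in −log10 p), with exact Poisson intervals at 95%. The depth of about 56800000 reads assumes a genome size of 2700000000 and a fragment of 164 bp, the smallest peak width. TSSs came from GENCODE 44 lifted to GRCh37 (193733 TSSs). No peak lay beyond a chromosome end. Ratios of peaks have exact conditional binomial intervals. Python 3.11.15, numpy 2.4.6, pandas 2.3.3, scipy 1.17.1, pysam 0.24.0 and matplotlib 3.10.9 were used, and the recovery was tested on simulated data. The alternatives changed the peak threshold, promoter window, TSS set, overlap rule, merging, ranking and motif windows.

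The genes, the pathway list (from general knowledge) and all descriptions were chosen with earlier results of these data known. The 250 bp upstream windows, the CpG and gene-body descriptions and the counts of E2F sites in whole peaks were added after the peaks were seen. Named genes were the 10 genes, the strongest and weakest of each pathway group, every listed gene without a peak, and genes sharing a peak with an E2F or DP gene.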

Additional observations from a re-analysis of the deposited data

How the results depend on the processing

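The number of members with a promoter peak was 10 under every alternative except the minimum fold enrichment of 5, which left 9, TFDP2 being lost. That minimum also took the promoter peaks from 18 to 10, and it moved the median of all members from 8.06 to 8.24 and of the DP genes from 5.95 to 7.41. Under the other alternatives the promoter peaks numbered from 13 (only the outermost TSS) to 20 (5000 bp upstream). In the pathway list 48 genes had a promoter peak with only the outermost TSS, 50 with the minimum of 5, and 51 or 52 otherwise. The medians of the activators, repressors and atypical members did not move under any alternative run. They could not, because each alternative kept the best peak of every gene in these roles. Members with an E2F site near the best summit numbered 0 within 50 bp, also with the shorter pattern, and 2 within 100 bp. Ranking by fragments at the summit, which leaves out the background, moved the percentages of bound genes passed. E2F4 fell from 66.8% to 56.2%, E2F8 from 48.4% to 38.6% and TFDP1 from 38.5% to 29.5%. E2F7 rose from 37.4% to 44.1%, E2F2 and TFDP2 rose too, and the remaining members fell. E2F3 (90.6%) stayed highest and TFDP2 (11.6%) lowest. No paired analysis was possible because the ChIP and the input had 1 library each, and for the same reason no replicate could be left out. With 22 to 89 fragments at the best summits, counting error alone leaves 8 of the 9 neighbouring pairs in the order unresolved. Peaks can be shared between adjacent genes, and the phosphorylated form named for the antibody and total MYBL2 cannot be told apart here.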
